A study of Mus musculus with 10 samples.

Results

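The genes described here are 10 cofactors of the MLL-AF9 fusion: Kmt2a, Men1, Psip1, Dot1l, Mllt1, Mllt3, Mllt10, Aff1, Aff4 and Cdk9. They were chosen by name for their known roles, with earlier results of these data known, and found by Ensembl identifier among the 52550 genes of the count table. All 10 had at least 10 counts in total, the minimum for calling a gene measured, and none was near it: the lowest count of a member in any library was 1075 (Men1) and the highest was 34479 (Kmt2a).

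MLL-AF9 joins the N-terminal part of the histone methyltransferase MLL, encoded by Kmt2a, to the C-terminal part of AF9, encoded by Mllt3. The MLL part is held on chromatin with the help of menin and LEDGF, and the AF9 part recruits the histone methyltransferase DOT1L and the super elongation complex, which releases paused RNA polymerase. Through these partners the fusion keeps genes such as the Hoxa cluster and Meis1 active in myeloid progenitors, and menin and DOT1L are known drug targets in leukemias of this kind.

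The cells were hematopoietic stem and progenitor cells (HSPCs) enriched from the bone marrow of wild-type C57BL/6 mice and transformed with an MLL-AF9 retrovirus. All of them carried the repressor tetR-KRAB and an inducible vector, pCW-miR-139 in MLL-AF9-i139 or an eGFP vector in MLL-AF9-ieGFP, so that doxycycline (DOX) switched on either the microRNA miR-139 or eGFP. MLL-AF9-i139 comprised 3 clones without DOX and the same 3 clones with DOX at 5 µg/mL, for 48 h in clones 1 and 2 and for 72 h in clone 3. MLL-AF9-ieGFP was 1 clone, sampled treated and untreated at both 48 h and 72 h, so its 2 libraries per condition are time points and not separate clones. The labels gave no time for the untreated MLL-AF9-i139 cultures, and in MLL-AF9-i139 the time of DOX and the clone cannot be told apart. The columns of counts number the clones differently, and clone numbers and times here follow the sample titles. The retroviral fusion has no entry of its own in the count table, so reads of its MLL or AF9 part that were counted for Kmt2a or Mllt3 cannot be told apart from those of the endogenous genes.

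Total counts were 35133308 to 47089725 per library, and 3 counts corresponded to 0.0637 to 0.0854 CPM (counts scaled to the library total). Kit, a progenitor marker, had 132 to 172 normalized CPM in the 10 libraries. Of 22 markers of lymphoid, erythroid, megakaryocytic, stromal and endothelial cells, 4 were at 0 in all libraries. The T cell gene Cd3e and the platelet gene Pf4 had 2 counts each in total. Ms4a1, among those at 0, lies 100% inside another annotated gene, and Cd3e lies 43.7% inside others. The summed level of the list was 22.04 to 45.04 CPM, and Pecam1 alone had group means of 19.4 to 30.6 normalized CPM. The myeloid marker Itgam had 6 counts in total, and 99.9% of its body lies inside another annotated gene. Itgam does not lie wholly inside that gene and so is not among the genes counted next. Of 585 protein-coding genes wholly inside another protein-coding gene without sharing an exon base, 577 (98.6%) were at 0 in all libraries. Among 11686 protein-coding genes outside all others the share was 24.9%.

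Since DOX expresses miR-139, the mature strands and the places in the members' 3′ UTRs that match their seeds are shown first. Both strands lie on chromosome 7, on the plus strand at chr7:101475382-101475403 (miR-139-5p) and chr7:101475418-101475439 (miR-139-3p), with sequences from RefSeq (GRCm38.p6), and the capitals mark the seed, bases 2 to 8.
mmu-miR-139-5p: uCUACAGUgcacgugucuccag
mmu-miR-139-3p: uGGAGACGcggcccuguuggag

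Annotated 3′ UTRs (GRCm38) were searched on the transcript strand for the complement of the seed, ACTGTAG for 5p and CGTCTCC for 3p, and for the forms that lack the outermost base but end in A, CTGTAGA and GTCTCCA. A member had at most 1 match. Those of Mllt3 and Aff1 belong to miR-139-5p, and those of Kmt2a, Men1 and Mllt1 to miR-139-3p. They are written 5′ to 3′ on the transcript strand, with the match in capitals.
Mllt3, chr4:87771561-87771567, minus: aggctaagagtcatgCTGTAGAgtc
Aff1, chr5:103855272-103855278, plus: tttccacaagatcaaACTGTAGgga
Kmt2a, chr9:44805088-44805094, minus: acagaaggcacagctGTCTCCAaaa
Men1, chr19:6340645-6340651, plus: tttggaaatcttcctCGTCTCCcta
Mllt1, chr17:56892771-56892777, minus: ggcttcacaagacatGTCTCCAtga

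None of these letters was found in the 3′ UTRs of Psip1, Dot1l, Mllt10, Aff4 and Cdk9. Among 13995 tested genes with an annotated 3′ UTR, 21.7% held a 5p match and 15.9% a 3p match. The share grows with length. Of 1436 genes with a 3′ UTR about as long as that of Mllt3, 51.0% held a 5p match and 35.7% a 3p match. Of 1988 genes with one about as long as that of Men1, 10.7% held a 5p match and 8.1% a 3p match. The match of Mllt3 lay in 1 of its 4 transcripts with an annotated 3′ UTR, and that of Men1 in 7 of 8. A match is a stretch of letters and not a measured site.

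In untreated MLL-AF9-i139 cells all 10 genes were expressed, and their order depended on the length by which counts were divided. Per kb of merged exons, Aff1, a scaffold of the super elongation complex, was highest with 63.1 ± 5.31 normalized CPM per kb (SD, n = 3), followed by Mllt10 (42.3 ± 6.79) and Kmt2a (27.4 ± 2.56). Mllt1 had 20.3 ± 1.79, Cdk9 17.4 ± 0.882, Dot1l 17.3 ± 0.997 and Aff4 12.4 ± 1.26 normalized CPM per kb of exon. Men1 (9.57 ± 1.20), Psip1 (9.45 ± 0.415) and Mllt3 (5.51 ± 1.45) were lowest. The ranges of Cdk9 and Dot1l, and those of Men1 and Psip1, overlapped, while the other neighbours in this order did not. Per kb of gene body, Cdk9 came first with 11.01 ± 0.557 and Mllt3, whose gene spans 263.44 kb, stayed last with 0.251 ± 0.0660 normalized CPM per kb. The libraries were made from total RNA, and whether intron reads were counted was not given in the sources used here. Of the genes inside another without a shared exon base, 98.6% were at 0, so the counts need not be of exons alone. If introns were counted, the exon scale reads too high for genes with long introns. What was counted was not tested, and neither scale is a measure of mature mRNA.

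**Figure D1:**
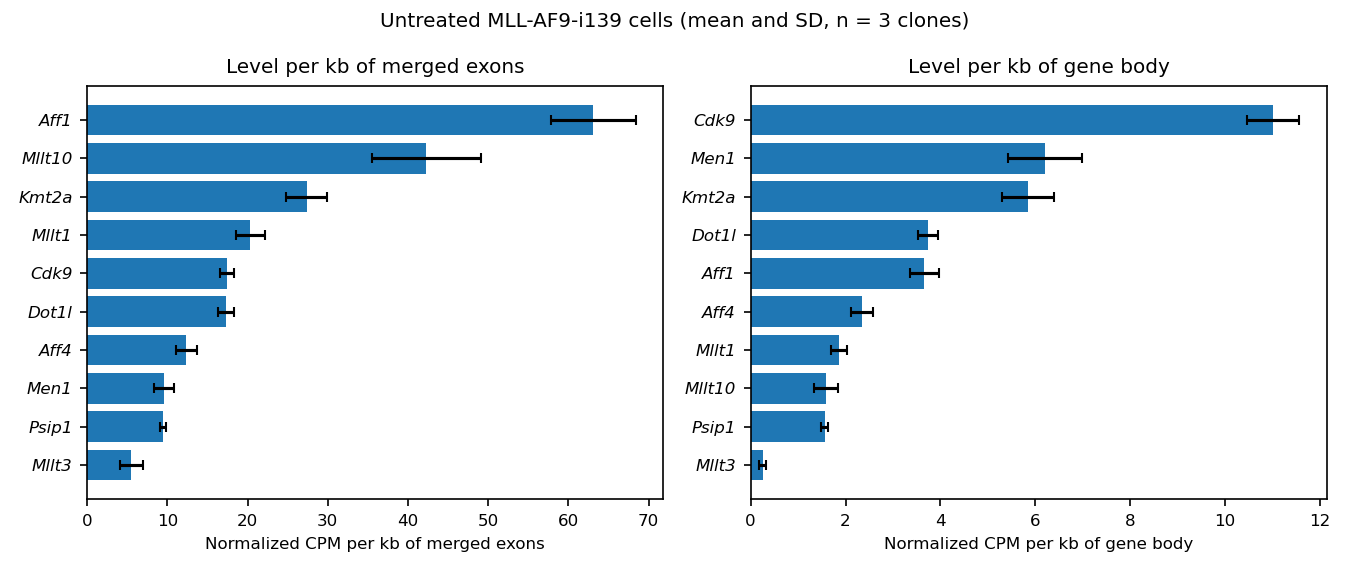
Mean normalized CPM per kb of merged exons (left) and per kb of gene body (right) in untreated MLL-AF9-i139 cells, with bars for the SD over 3 clones. Aff1 leads on the exon scale, Cdk9 on the body scale, and Mllt3 is lowest on both.

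Annotated overlap with other genes touches some of these levels. Of the exon bases of Psip1, 77.9% lie inside the neighbouring gene Snapc3, and of those of Mllt10, 51.5% lie inside other genes, among them Dnajc1. For Kmt2a this share was 3.28%, for Cdk9 3.36% and for Dot1l 0.735%, and it was 0 for Men1, Mllt1, Mllt3, Aff1 and Aff4.

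The first question was whether the cofactors changed when miR-139 was switched on. Across the 3 clones of MLL-AF9-i139, none of the 10 genes passed an adjusted p of 0.05 (quasi-likelihood test of edgeR, Benjamini-Hochberg over 19223 genes), and 1 of 10, Aff4, had an unadjusted p under 0.05. Over all genes tested, 0.0624% were called and 20.6% had an unadjusted p under 0.05. DESeq2 also called 0 of the 10, with 8.09% of all genes called and 1 member at an unadjusted p under 0.05. With the clone as a block, which pairs the libraries of each clone, 0 of the 10 were called and 3 had an unadjusted p under 0.05, against 12.4% and 31.2% of all genes. The median log2 fold change of the 10 was 0.01, and that of all genes was 0.01. In bulk RNA, fewer cells of a type and less RNA per cell cannot be told apart.

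**Figure D2:**
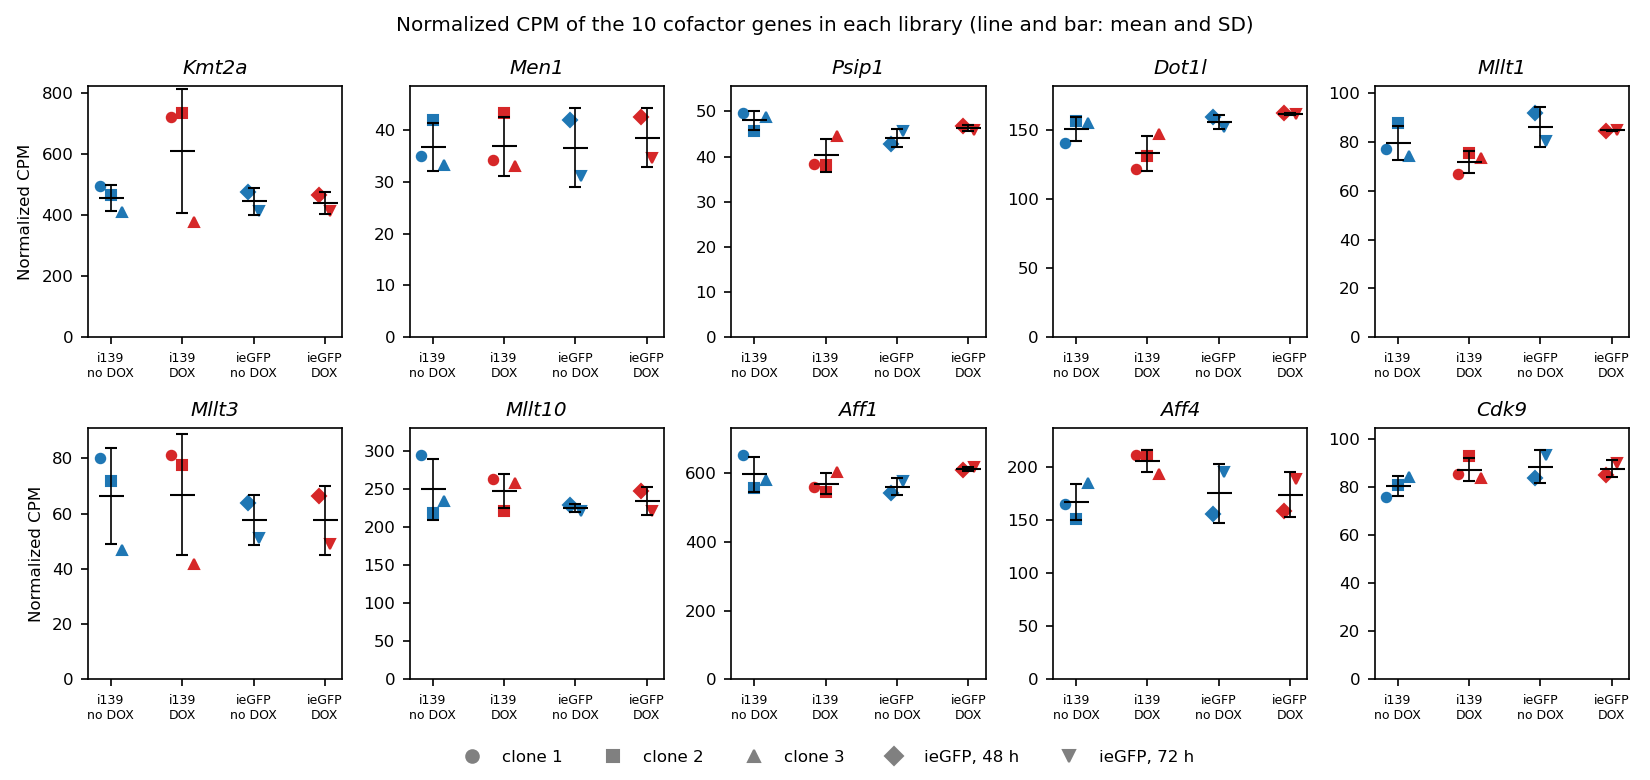
Normalized CPM of each of the 10 genes (linear axes from 0) in the 10 libraries, by construct and DOX, with symbols for clones and time points and bars for the mean and SD. With DOX, Kmt2a was at 720.1 and 734 in clones 1 and 2 and at 377 in clone 3, and its treated and untreated MLL-AF9-ieGFP libraries overlapped.

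Kmt2a (ENSMUSG00000002028, chromosome 9 from 44803355 to 44881296, minus strand) encodes MLL, the histone methyltransferase whose N-terminal part is in the fusion. Untreated clones 1, 2 and 3 had 494, 465 and 409.8 normalized CPM. Treated, they had 720.1, 734 and 377. The MLL-AF9-ieGFP clone stood at 476 untreated and 465 treated at 48 h, and at 413 in both conditions at 72 h. Clones 1 and 2 with DOX were the 2 highest of the 10 libraries and clone 3 with DOX was the lowest. The group means were 456 ± 42.6 and 610.3 ± 202 normalized CPM (SD, n = 3), and the fitted log2 fold change was 0.43 (SE, the standard error, 0.24, adjusted p = 0.335, edgeR). By clone the log2 fold change was 0.54, 0.66 and -0.12. Leaving out clone 3, the fitted value was 0.62 (SE 0.092, adjusted p = 0.00339, edgeR), that is, the rise passed the test at 48 h in clones 1 and 2.

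Men1 (ENSMUSG00000024947, chromosome 19 from 6334979 to 6340891, plus strand) encodes menin, the adaptor that binds the MLL part of the fusion. Clone 1 had 35.02 normalized CPM untreated and 34.1 treated, clone 2 had 41.9 and 43.3, and clone 3 had 33.2 and 33.0. Each clone kept its level, and the log2 fold changes by clone lay between -0.04 and 0.05. The fitted log2 fold change was 0.02 (SE 0.15).

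Psip1 (ENSMUSG00000028484, chromosome 4 from 83455680 to 83486459, minus strand) encodes LEDGF, a chromatin reader that tethers menin and MLL. Without DOX it had 49.7, 45.7 and 48.8 normalized CPM and with DOX 38.3, 38.1 and 44.6. Every clone was lower with DOX and the groups did not overlap. Over all genes tested, groups did not overlap in 24.9%, with DOX below in 12.8% and above in 12%. The fitted log2 fold change was -0.24 (SE 0.11, adjusted p = 0.253, edgeR), and with the clone block the adjusted p was 0.109 (edgeR). The MLL-AF9-ieGFP clone went from 42.8 to 46.7 normalized CPM with DOX at 48 h, and from 45.6 to 45.9 at 72 h. Snapc3, in which most exon bases of Psip1 lie, had a log2 fold change of 0.10 (SE 0.10) in MLL-AF9-i139.

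Dot1l (ENSMUSG00000061589, chromosome 10 from 80755206 to 80795461, plus strand) encodes the histone H3 methyltransferase that is recruited by the AF9 part. It had 141, 156 and 155 normalized CPM without DOX and 122, 131 and 147 with DOX. All 3 clones were lower with DOX, but clone 3 with DOX lay above clone 1 without, so the groups overlapped. The log2 fold changes by clone were -0.21, -0.26 and -0.08, and the fitted value was -0.17 (SE 0.10, adjusted p = 0.39, edgeR). The MLL-AF9-ieGFP clone had 159 untreated and 162 treated at 48 h, and 152 untreated and 161 treated at 72 h.

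Mllt10 (ENSMUSG00000026743, chromosome 2 from 18055237 to 18212388, plus strand) encodes AF10, the partner that stimulates the activity of DOT1L. Without DOX it had 295, 219 and 235 normalized CPM and with DOX 263, 222 and 259. The clones did not share a direction, with log2 fold changes of -0.17, 0.02 and 0.14, and the fitted value was 0.00079 (SE 0.13).

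Mllt1 and Mllt3 encode ENL and AF9, related YEATS-domain readers of acylated histones that bridge DOT1L and the super elongation complex. Mllt1 (ENSMUSG00000024212, chromosome 17 from 56892611 to 56935415, minus strand) had 77.0, 87.6 and 74.4 normalized CPM without DOX and 66.8, 75.3 and 73.3 with DOX. It was lower with DOX in all 3 clones, by 0.20, 0.22 and 0.02 on the log2 scale in size, and the groups overlapped, with a fitted log2 fold change of -0.14 (SE 0.10). Mllt3 (ENSMUSG00000028496, chromosome 4 from 87769925 to 88033364, minus strand) had 80.1, 71.7 and 46.7 normalized CPM without DOX and 81.2, 77.5 and 41.6 with DOX. Clone 3 was the lowest clone in both conditions, and the fitted log2 fold change was 0.03 (SE 0.28), the largest error of the 10. With the clone block the SE was 0.091 and the log2 fold change was 0.0023.

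Aff1 (ENSMUSG00000029313, chromosome 5 from 103692374 to 103855322, plus strand) encodes AF4, a scaffold of the super elongation complex. It had 653, 557 and 581 normalized CPM without DOX and 560.0, 544 and 604 with DOX. The groups overlapped and the fitted log2 fold change was -0.06 (SE 0.10).

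Aff4 (ENSMUSG00000049470, chromosome 11 from 53350833 to 53421830, plus strand) encodes the other main scaffold of that complex. Without DOX it had 165, 151 and 184 normalized CPM and with DOX 211, 211 and 193. Every clone was higher with DOX and the groups did not overlap, the only member above, as were 12% of all genes. The log2 fold changes by clone were 0.36, 0.49 and 0.07, and the fitted value was 0.31 (SE 0.11, adjusted p = 0.166, edgeR). With the clone block it was 0.32 (SE 0.10, adjusted p = 0.0824, edgeR). Leaving out clone 3, it was 0.44 (SE 0.089, adjusted p = 0.0116, edgeR), past the threshold.

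Cdk9 (ENSMUSG00000009555, chromosome 2 from 32705784 to 32713076, minus strand) encodes the kinase of P-TEFb, which phosphorylates paused RNA polymerase and its pausing factors. It had 76.0, 80.8 and 84.1 normalized CPM without DOX and 85.2, 92.7 and 83.7 with DOX. Clones 1 and 2 were higher with DOX, by log2 fold changes of 0.17 and 0.20, and clone 3 differed by -0.0062. The fitted log2 fold change was 0.13 (SE 0.095).

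The clones were thus not alike. Of the 10 genes, 4 had the same sign in all 3 clones (Psip1, Dot1l, Mllt1 and Aff4), 8 had the same sign in clones 1 and 2, and in 7 the smallest change in size was that of clone 3. The shares of all genes with these patterns were not counted. The median size of the log2 fold change of the 10 was 0.21, 0.21 and 0.07 in clones 1, 2 and 3, and over the 8384 genes with a mean of at least 10 normalized CPM it was 0.29, 0.29 and 0.12. Clone 3 therefore stood apart over all expressed genes and not among the cofactors alone. Without clone 3, 2 of the 10 were called higher (Kmt2a and Aff4) and 0 lower, where 11.6% of all genes were called higher and 10.1% lower. With the block and without clone 3, an alternative chosen after the values were seen, 6 were called (Kmt2a, Aff4 and Cdk9 higher, Psip1, Dot1l and Mllt1 lower), where 43.4% of all genes were called, 22.5% higher and 20.9% lower.

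**Figure D3:**
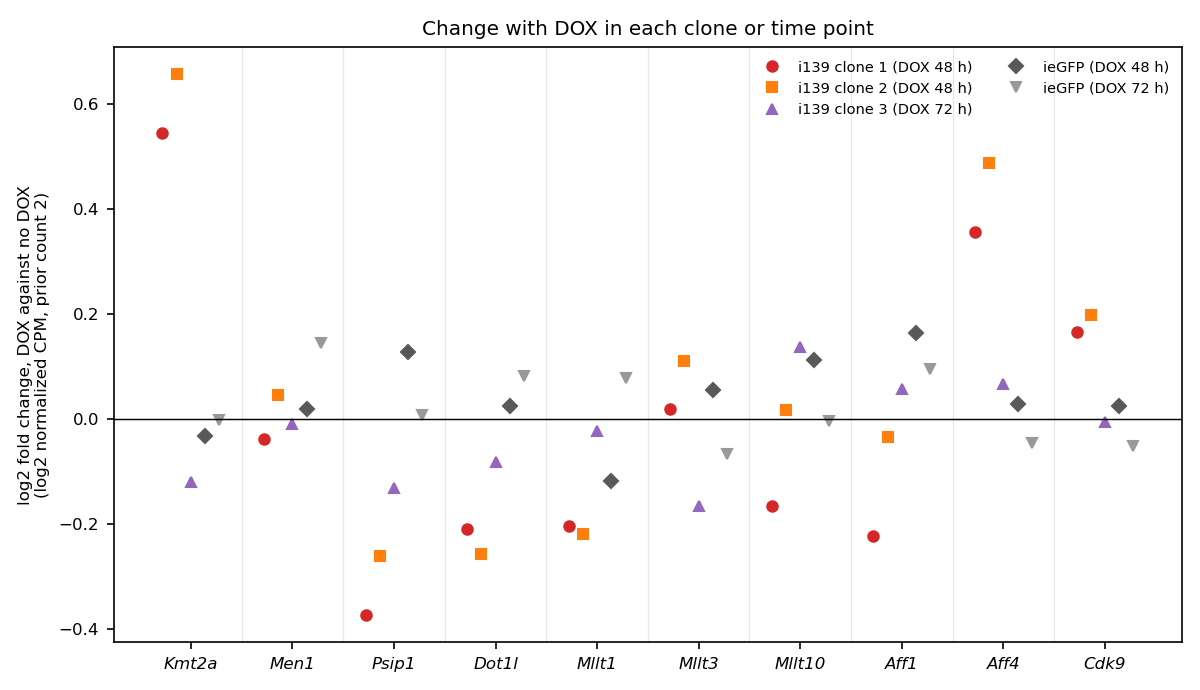
Log2 fold change with DOX of each gene in MLL-AF9-i139 clones 1 to 3 and at the 48 h and 72 h points of MLL-AF9-ieGFP, as differences of log2 normalized CPM with a prior count of 2. Kmt2a and Aff4 lie highest in clones 1 and 2 (0.54 and 0.66, 0.36 and 0.49), and clone 3 lies within 0.17 of 0 for every gene.

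In MLL-AF9-ieGFP, where DOX induced eGFP, the question was whether DOX together with eGFP moved the cofactors. The effect of DOX alone cannot be told apart from that of eGFP in this clone. None of the 10 was called, nor was any of 20269 genes (0%, edgeR), and 0 of the 10 had an unadjusted p under 0.05, against 1.28% of all genes. DESeq2 called 0 of the 10 as well, none of them at an unadjusted p under 0.05, and 1 gene in all. With the time points as a block, 0 of the 10 were called or had an unadjusted p under 0.05, against 1.92% of all genes at that level. The largest fitted log2 fold change was that of Aff1, 0.13 (SE 0.10), from 544 to 609 normalized CPM at 48 h and from 578 to 617 at 72 h. Psip1, Dot1l and Aff1 were higher with DOX at both time points without overlap, 3 of 10, where 26.9% of all genes did not overlap.

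The difference of the DOX effect between MLL-AF9-i139 and MLL-AF9-ieGFP was tested as an interaction. No member passed (adjusted p of 0.558 to 1.00, edgeR), 0 of the 10 had an unadjusted p under 0.05, and DESeq2 gave 0 and 0 likewise, beside 0.00493% of all genes called and 9.18% at an unadjusted p under 0.05 with edgeR. The largest estimates were those of Kmt2a, 0.44 (SE 0.33), Psip1, -0.32 (SE 0.15), and Aff4, 0.31 (SE 0.18). With the clones and time points as a block, 0 were called and Psip1 and Aff4 had an unadjusted p under 0.05, with adjusted p of 0.211 and 0.246 (edgeR), where 0.187% of all genes were called and 18.9% had an unadjusted p under 0.05. Without clone 3, Kmt2a passed with 0.65 (SE 0.13, adjusted p = 0.00997, edgeR), 1 of 10 where 10.2% of all genes passed, and 5.74% passed with a higher value. At 48 h alone, with the 72 h libraries of both constructs left out, the estimate for Kmt2a was 0.63 and its adjusted p was 0.0806 (edgeR).

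**Figure D4:**
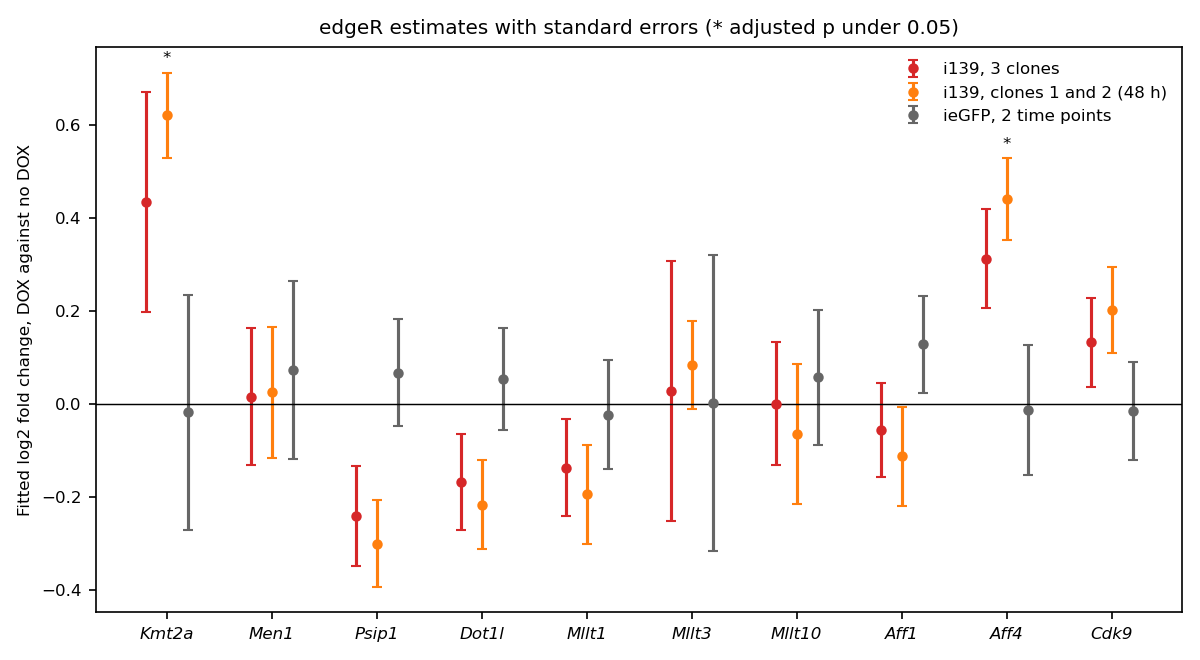
Fitted log2 fold change with DOX of each gene (edgeR, bars are standard errors) over the 3 MLL-AF9-i139 clones, over clones 1 and 2 alone, and over the 2 time points of MLL-AF9-ieGFP. Stars mark an adjusted p under 0.05, reached by Kmt2a (0.62) and Aff4 (0.44) in clones 1 and 2 alone.

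Set side by side with DOX, 4 of the 10 were lower in every MLL-AF9-i139 library than in either MLL-AF9-ieGFP library (Psip1, Dot1l, Mllt1 and Aff1), and Aff4 was higher, 5 in all, where 37% of all genes did not overlap. Dot1l had 122 to 147 against 161 and 162 normalized CPM, and Mllt1 had 66.8 to 75.3 against 84.6 and 84.9. Without DOX, the constructs were closer. None of the 10 was called between untreated MLL-AF9-i139 and untreated MLL-AF9-ieGFP, by edgeR or DESeq2, and 0 had an unadjusted p under 0.05 by either tool, beside 0.0444% of all genes called and 2.48% at an unadjusted p under 0.05 (edgeR). Psip1 was the 1 member whose groups did not overlap, where 16.7% of all genes did not. The fitted differences (MLL-AF9-i139 minus MLL-AF9-ieGFP) ran from -0.14 for Cdk9 to 0.20 for Mllt3.

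Time in culture could be read in MLL-AF9-ieGFP alone, with 1 library per condition and time, and the difference was not tested. At 72 h compared with 48 h, Men1 was lower by 0.43 on the log2 scale in size without DOX (41.9 and 31.2 normalized CPM at 48 h and 72 h) and by 0.30 with DOX (42.5 and 34.5). For Mllt3 the untreated cultures went from 64.0 to 51.1 normalized CPM between these points and the treated ones from 66.5 to 48.8, and Kmt2a was lower at 72 h as well. Aff4 went the other way, from 155 to 195 normalized CPM untreated and from 159 to 188 treated. Cdk9 was also higher at 72 h, from 83.6 to 93.3 normalized CPM untreated and from 85.1 to 90.0 treated. For Men1, Mllt3, Kmt2a, Aff4 and Cdk9 this difference between time points was larger than the one between treated and untreated MLL-AF9-ieGFP cultures at either time.

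As a description of shape, the gene whose log2 normalized CPM followed a member most closely over the 10 libraries was taken from 8383 other genes with a mean of at least 10 CPM. Among the MLL complex genes it was Pced1b for Kmt2a (Pearson's r of 0.991), Chmp7 for Men1 (0.957) and Ssbp1 for Psip1 (0.978). Among the DOT1L partners it was Bub1b, a mitotic checkpoint kinase, for Dot1l (0.984), Fam172a for Mllt10 (0.978), Zbtb48 for Mllt1 (0.978) and Lrrk2 for Mllt3 (0.963). For the scaffolds of the super elongation complex it was Wrn for Aff1 (0.918) and the RNA helicase gene Ddx6 for Aff4 (0.966). Each r is the highest of 8383 on 10 points, a choice that raises it by itself, and a tie between the genes was not tested. Libraries of the same clone are among these points and are not independent.

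The partners of the cofactors were taken from fixed lists, chosen with earlier results of these data known. Of 17 COMPASS and MLL-family subunits, which form the histone methyltransferase complexes around MLL, 16 were tested in MLL-AF9-i139 and none was called (edgeR), with 8 at an unadjusted p under 0.05, where 20.6% of all genes were, and a median log2 fold change of -0.03 beside 0.01 over all genes. With the clone block 2 were called, both lower, where 5.33% of all genes were called lower and 7.05% higher. Dpy30, a core subunit, had 67.6 ± 3.19 normalized CPM without DOX and 36.9 ± 9.76 with DOX (SD, n = 3), a log2 fold change of -0.89 (SE 0.14, adjusted p = 0.0225 with the block and 0.0959 without, edgeR). By clone it fell by 1.16, 1.07 and 0.48. Paxip1, which encodes PTIP, a subunit of the complexes of Kmt2c and Kmt2d, had 112 ± 1.93 and 82.1 ± 17.1 normalized CPM (adjusted p = 0.048 with the block, edgeR). Wdr5, another core subunit, had 155 ± 10.4 and 120.1 ± 25.1. Kmt2c and Kmt2d, paralogs of Kmt2a, had log2 fold changes of 0.27 and 0.26 with the block and did not pass. In MLL-AF9-ieGFP the log2 fold change of Dpy30 was -0.05.

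Of the 19 genes of the super elongation complex and P-TEFb, which include relatives of Aff1 and Aff4 and the regulators of Cdk9, all were tested and 0 were called with or without the block. An unadjusted p under 0.05 was reached by 4 of 19 without the block and by 7 with it, where 20.6% and 31.2% of all genes reached it. The median was -0.03. Ell, an elongation factor of the complex, had 61.5 ± 0.457 normalized CPM without DOX and 93.8 ± 24.9 with DOX (log2 fold change 0.59, adjusted p = 0.052 with the block, edgeR). Aff2, a further scaffold, had 287 ± 52.4 and 195 ± 46.3, and Brd2, a reader of acetylated histones, had 310 ± 15.01 and 264 ± 10.6 normalized CPM.

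Of the 16 pausing and elongation factors, none was called without the block (2 at an unadjusted p under 0.05, where 20.6% of all genes were) and 1 was called lower with it, where 5.33% of all genes were. This was Supt16, a subunit of the histone chaperone FACT, with 283 ± 6.73 normalized CPM without DOX and 207 ± 35.5 with DOX (log2 fold change -0.45, SE 0.094, adjusted p = 0.033 with the block, edgeR). The median was -0.11, with 13 of 16 genes below 0, beside 9388 of 19223 over all genes. A similar tally was found where miR-139 was not induced, with 12 of 16 below 0 for DOX in MLL-AF9-ieGFP (median -0.03) and 13 of 16 between the untreated constructs (median -0.09). Nelfa, a subunit of the pausing factor NELF, had 69.8 ± 0.981 and 57.3 ± 5.49 normalized CPM.

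Of the DOT1L partners and enzymes of H2B ubiquitin, a mark that stimulates DOT1L, 13 of 15 were tested and 0 were called in either fit (2 of 13 at an unadjusted p under 0.05 without the block and 4 with it, where 20.6% and 31.2% of all genes were), with a median of 0.12. Skp1a and Ube2b were at 0 in all libraries, and 100% of each lies inside other annotated genes. Mllt6, a paralog of Mllt10, had 26.1 ± 6.97 and 33.4 ± 11.2 normalized CPM, higher by 0.34, 0.22 and 0.45 on the log2 scale in clones 1, 2 and 3, and by a fitted 0.35 in MLL-AF9-ieGFP, where it was not called either.

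Known target genes of MLL-AF9 were the last list. Of 15, 12 were tested and none was called without the block (4 at an unadjusted p under 0.05, where 20.6% of all genes were). With the block 4 of 12 were called lower and 0 higher, where 5.33% of all genes were called lower and 7.05% higher. The median was -0.11. Cdk6, a cell cycle kinase, had 1639 ± 148 normalized CPM without DOX and 1166 ± 214 with DOX (log2 fold change -0.49, SE 0.095, adjusted p = 0.0289 with the block, edgeR). Hoxa11 had 47.2 ± 3.16 and 29.3 ± 10.0 normalized CPM and Hoxa10 had 123 ± 10.2 and 94.5 ± 17.0, and the other gene called was Hoxa9, all homeobox genes of one cluster. Hoxa11 overlaps the annotated gene Hoxa11os over 38.3% of its body. Meis1 did not pass (log2 fold change -0.16). Hoxa5 and Hoxa6 were at 0 counts, and 100% of each lies inside other annotated genes, and Eya1 had 1 count. For DOX in MLL-AF9-ieGFP the 12 genes had a median of -0.01, with none called, where 0% of all genes were. Between the untreated constructs (MLL-AF9-i139 minus MLL-AF9-ieGFP), 11 of the 12 were already above 0, with a median of 0.20. Over all genes 10746 of 20269 were above 0, with a median of 0.01. None of the 12 was called there, where 0.0444% of all genes were called (edgeR). An unadjusted p under 0.05 was found for 2 of the 12 and for 2.48% of all genes (edgeR). The interaction of DOX with construct called 0 of 12 in either fit, where 0.00493% of all genes were called without the block and 0.187% with it (edgeR). An unadjusted p under 0.05 was reached by 1 of 12 without the block and by 3 with it, where 9.18% and 18.9% of all genes reached it.

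Sets of myeloid markers were examined beside these values. The summed level of 11 myeloid progenitor markers was 3591 to 5050 CPM in untreated and 5424 to 7509 CPM in DOX-treated MLL-AF9-i139 clones, and 3666 to 4377 and 4025 to 5450.0 CPM in MLL-AF9-ieGFP. Of the 10 tested, 0 were called without the block (edgeR, 7 at an unadjusted p under 0.05) and 5 were called higher with it, 0 lower, where 20.6% of all genes had such a p without the block and 7.05% were called higher with it. Mpo, which encodes myeloperoxidase, had 536 ± 107 and 1406 ± 229 normalized CPM, with 49.5% of its body inside another annotated gene. Mpo also went from 583 to 816 normalized CPM with DOX in MLL-AF9-ieGFP, where it was not called. With the block, 2 of the 10 were below 0, Prtn3 and Elane, neither of them called. Prtn3 had 442 ± 78.5 and 347 ± 164 normalized CPM, and the log2 fold changes of Elane by clone were -0.26, -0.38 and 0.41. The 17 markers of maturing granulocytes and monocytes were summed in the same way. Their level in MLL-AF9-i139 was 545 to 596 CPM without DOX and 626 to 662 CPM with DOX. Untreated MLL-AF9-ieGFP cells stood at 652.6 CPM at 48 h and 743.7 CPM at 72 h, and treated ones at 650.6 and 801 CPM. The untreated 48 h value lay within the range of the treated MLL-AF9-i139 clones, and the untreated 72 h value lay above it. Of 15 markers tested in MLL-AF9-i139, 0 were called without the block (4 at an unadjusted p under 0.05). With the block 3 were called higher and 1, Ccr2, lower, beside 7.05% and 5.33% of all genes. The highest fold among them was that of Cxcr2, a neutrophil chemokine receptor, with 1.05 ± 0.261 and 22.3 ± 19.4 normalized CPM and log2 fold changes of 4.893, 4.605 and 1.499 in clones 1, 2 and 3. Of the 22 markers of other cell types, 8 were tested and 0 were called in either fit (edgeR). An unadjusted p under 0.05 was found for 2 of 8 without the block and for 1 with it, where 20.6% and 31.2% of all genes had one. The part of these shifts in the values of the cofactors was not tested.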

How the data were processed

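RNA sequencing of 10 libraries was analysed. Per the labels and the methods, total RNA was depleted of ribosomal RNA. The authors mapped reads with STAR 2.5.3e to GRCm38, counted them per gene with featureCounts 1.6.0 on a GENCODE release, and deposited the raw counts. The counting settings were not given in the sources used here. In the table, 14 columns of values of other samples were not used. The members and lists were chosen with earlier results of these data known.

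Genes with at least 10 counts in total were tested with edgeR 4.0.16 (R 4.3.3, quasi-likelihood, TMM), on 6 libraries for DOX in MLL-AF9-i139 and on all 10 otherwise, with Benjamini-Hochberg adjustment and a threshold of 0.05. Changes of single clones used a prior count of 2. Nothing says that the clones came from separate animals, so p-values measure the spread between these libraries. Libraries of the same clone, paired by the titles, deviated together (r of 0.288 to 0.414), and no pair of libraries of 1 group agreed within sampling noise. All members were named, and from each list up to 3 genes per direction with the smallest p in the block fit, plus Hoxa9 and Meis1, chosen after their values were seen. The gene most like Cdk9 is not reported here. Positions, 3′ UTRs and overlaps came from GENCODE M21 (GRCm38). The code was tested on simulated data. Alternatives were DESeq2 1.42.0, RLE size factors, other filters, the clone block, other libraries in the fit and each replicate left out.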

Additional observations from a re-analysis of the deposited data

Results flagged for a closer look

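Psip1 and Dot1l were lower with DOX in all 3 clones of MLL-AF9-i139 and higher at both time points of MLL-AF9-ieGFP. They were flagged by this pattern of signs, and its share over all genes was not counted. Each change in MLL-AF9-ieGFP sets 1 library against 1. The log2 fold changes of Psip1 were -0.37, -0.26 and -0.13 in clones 1, 2 and 3 and 0.13 and 0.0079 in MLL-AF9-ieGFP at 48 h and 72 h, and those of Dot1l were -0.21, -0.26 and -0.082 against 0.0252 and 0.0829. The difference between the constructs, tested as an interaction, did not pass for either (adjusted p = 0.558 and 0.623, edgeR).

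In 4 genes clones 1 and 2, with DOX for 48 h, moved one way and clone 3, with DOX for 72 h, the other. On the log2 scale, clones 1, 2 and 3 differed by 0.54, 0.66 and -0.12 for Kmt2a, 0.0194, 0.11 and -0.17 for Mllt3, -0.22, -0.0336 and 0.0569 for Aff1, and 0.17, 0.20 and -0.0062 for Cdk9. These genes were flagged by this pattern, and its share over all genes was not counted. The difference was not tested, and clone and time cannot be told apart.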

How the results depend on the processing

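For the 10 cofactors, no member was called in any comparison under DESeq2, RLE size factors, both other filters, the other choices of libraries or the replicate block (0 of 10 with the clone and time point block in each of the 3 DOX comparisons), and no called value reversed. The exceptions rest on leaving out clone 3: the members called with DOX in MLL-AF9-i139 ranged from 0 to 2 over the clones left out, and those of the interaction from 0 to 1. With the replicate block and 48 h alone, chosen after the values were seen, 6 were called, on 1 residual degree of freedom. With the block and without clone 1 or clone 2, 0 were called. Kmt2a ranged from 0.22 to 0.62 over the alternatives and Aff4 from 0.22 to 0.44, always above 0, and Psip1 from -0.30 to -0.19.

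The count over all genes moved far more. In MLL-AF9-i139 it was 12, and 1556 with DESeq2, 562 with no filter, 6 with the stricter filter, 2381 with the replicate block, 1234 in the fit of all 10 libraries and 0 to 3982 with a clone left out. With the block it was 7974 at 48 h alone, and 324 and 574 without clone 1 and clone 2. In MLL-AF9-ieGFP it was 0, and 1 with DESeq2 or with no filter. For the interaction it was 1, and 82 with DESeq2, 71 with no filter, 0 with the stricter filter, 38 with the replicate block, 0 to 2011 with replicates left out and 517 at 48 h alone. Between the untreated constructs it was 9, and 45 with DESeq2, 37 with no filter and 2 to 9 with a library left out. The causes were not tested. The members had at least 1075 counts each per library, and the part of depth was not tested.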
